A study of Mus musculus with 6 samples.

Results

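*Foxd4* encodes a forkhead transcription factor and was the gene with the largest measured fall in embryos mutant for *Zic2*, which is the reason it was chosen here. It is 1 of 19057 genes with a named probe and is represented by 1 of the 45281 probes on the array (ILMN_2744317), taken as every probe that the platform annotation assigns to the symbol *Foxd4*. The tested embryos were *Zic2* iso/iso, homozygous for *iso*, a chemically induced allele that places a stop codon in the sequence for the fifth zinc finger of ZIC2, and the controls were their *Zic2* +/+ (wildtype) littermates from crosses of iso/+ parents, labelled as strain C3H/HeH. Whole embryos were collected at E8.0 to E8.5, and each of 3 *Zic2* iso/iso and 3 wildtype samples was a pool of 8 stage-matched embryos, hybridised to 1 Illumina Mouse WG6 v2 array. The allele is a single mutant line, and a pool gives only the average over its embryos. Because *Foxd4* was selected on the contrast between these 6 pools, its own values are given as a description, with no test.

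Forkhead proteins bind DNA through a winged-helix domain. In *Xenopus*, the related factor foxd4l1 stands near the top of a network that keeps newly induced neural ectoderm immature: it raises *zic2*, *gmnn* and *sox11* and holds down *zic1*, Iroquois genes and genes of neural differentiation. In mouse embryonic stem cells *Foxd4* is needed for the turn towards neural fate, and in the mouse embryo it is transcribed in the node and the anterior neural ectoderm. ZIC2 is a zinc finger transcription factor of the same tissues, whose loss causes holoprosencephaly. The frog order places the *Foxd4* relative above *zic2*. Setting *Zic2* iso/iso beside wildtype embryos asks the opposite question, namely what becomes of *Foxd4* when *Zic2* is mutant.

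The first pair of sequences shows the allele that separates the groups, on the coding strand of *Zic2* (chromosome 14), with the affected codon in capitals. The substitution is C32A, counted from 1 at the first base printed, and it turns the codon TAC into the stop codon TAA.
Zic2 iso: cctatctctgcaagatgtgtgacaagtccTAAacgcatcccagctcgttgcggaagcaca
Zic2 wildtype: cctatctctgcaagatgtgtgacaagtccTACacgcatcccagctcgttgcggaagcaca

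The window around the annotated start of *Foxd4* is shown because ZIC2 binds DNA and *Foxd4* fell in its mutant. It spans chr19:24900967-24901266 on the minus strand of GRCm38.p6 (RefSeq), from 250 bases before the start to 50 after it. The core of the ZIC motif (CAGCAGG), a site shared by ZIC and GLI proteins (GGGTGGTC) and a forkhead site (GTAAACA) were searched on both strands. None of these 3 strings of letters is in this window, while 10.5%, 0.807% and 3.65% of 32851 promoter windows of this length hold them. The ZIC2 sites that the study examined in a *Nodal* enhancer do not hold CAGCAGG either, and other forms of a ZIC site were not searched. The window may therefore hold a ZIC site that this search could not find. Capitals mark the 20 bases to which the reverse primer of the study's *Foxd4* qPCR pair binds (primer GCGGGCTCTGTTGATGTTTC). This site ends 163 bases upstream of the annotated start, and the forward primer was not found in the window. Where the transcript measured by this pair starts was not examined, so the window need not be its promoter. The qPCR values were not analysed here, and no sequence of the array probe was used.
Foxd4 promoter window: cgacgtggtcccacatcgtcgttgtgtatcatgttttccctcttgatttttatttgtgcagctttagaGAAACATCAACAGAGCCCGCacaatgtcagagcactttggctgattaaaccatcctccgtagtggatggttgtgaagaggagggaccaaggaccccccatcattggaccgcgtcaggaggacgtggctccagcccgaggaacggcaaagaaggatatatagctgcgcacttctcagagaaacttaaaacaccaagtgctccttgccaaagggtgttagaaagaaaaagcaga

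The deposited values were linear intensities without background subtraction, with a lowest intensity of 103.8 to 122.4 and a median of 153.9 to 187.1 on each array. They were converted to log2 and quantile normalised, and all differences below are *Zic2* iso/iso minus wildtype on that scale. A background level of 7.47 (log2) was read from 1608 probes for genes of late or specialised tissues, such as olfactory receptors. Arrays correlated at r = 0.993 to 0.995 across probes, which are not independent replicates. Transcripts were read of neural plate (13 of 18 measured genes above the background level), heart (3 of 4), somites (4 of 5) and primitive blood (3 of 4). Of all 19057 genes, 10845 were above that level. Genes of yolk sac endoderm (5 of 5) and of trophoblast or decidua (3 of 4) were read as well. These counts therefore do not tell tissue of the embryo from tissue carried along. With limma and Benjamini-Hochberg adjustment over all 45281 probes, 20 probes (0.0442%) passed an adjusted p of 0.05, of which 18 (0.0398%) were lower and 2 (0.00442%) higher. The number of arrays limits the precision, since 3 pools against 3 allow no two-sided exact permutation p under 0.1.

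*Foxd4* was low in all 3 *Zic2* iso/iso pools and high in all 3 wildtype pools. Mutant pools 1 to 3 had deposited intensities of 303.3, 363.9 and 359.6, against 1778.6, 1992 and 1701.1 in wildtype pools 1 to 3. Normalised log2 intensities were 7.98, 8.52 and 8.66 for the mutant pools, against 10.91, 10.91 and 10.80 in wildtype pools. The groups were far apart, with a gap of 2.14 between the highest mutant and the lowest wildtype pool. Over all probes, 5.46% had every mutant pool below every wildtype pool. Nothing is read from this, since the same values chose the gene. In bulk samples such as these, fewer cells that transcribe *Foxd4* and less *Foxd4* RNA per cell cannot be told apart.

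The mean log2 intensity was 8.38 ± 0.36 (SD, n = 3) in *Zic2* iso/iso embryos and 10.87 ± 0.06 (SD, n = 3) in wildtype embryos. The difference was −2.49 (standard error 0.13), or 5.61-fold lower. Taken pool against pool, the 9 possible pairs of a mutant with a wildtype pool gave between 4.41-fold and 7.64-fold lower values. Every mutant pool still lay above the background level, by 0.51, 1.05 and 1.19 on the log2 scale, against 3.44, 3.44 and 3.33 in wildtype pools. A residual signal was therefore read in each mutant pool.

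**Figure D1:**
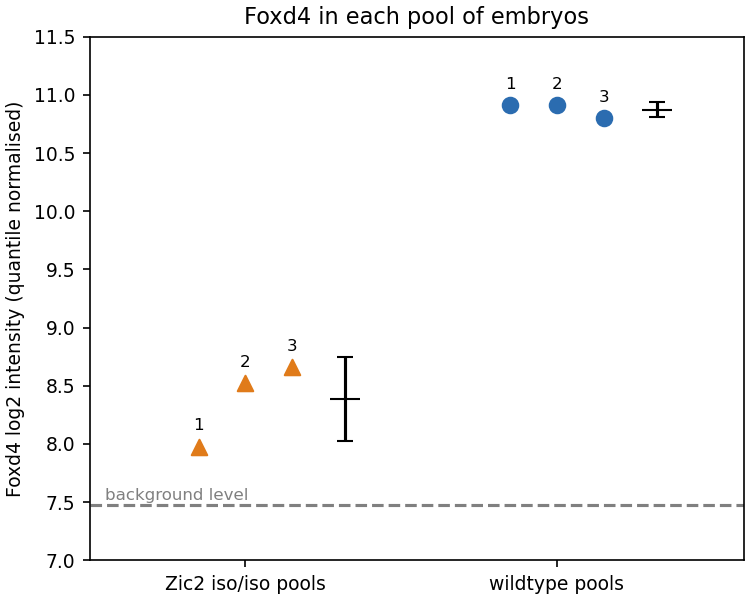
Quantile-normalised log2 intensity of Foxd4 (vertical axis) in each Zic2 iso/iso pool (triangles) and wildtype pool (circles), numbered by replicate. Bars give mean and SD over 3 pools, and a dashed line marks the background level (7.47). The mutant pools lie between 7.98 and 8.66 and the wildtype pools between 10.80 and 10.91.

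How large the fall appears depends on the background, which makes up more of a dim value than of a bright one. With normexp background correction the mutant pools stood at 7.49, 8.20 and 8.37, against 10.85, 10.85 and 10.74 in wildtype pools, which is 6.93-fold lower. With a rewritten variance stabilising normalisation, the method the study names, it was 6.84-fold lower. Subtracting the background level from both means on the linear scale, an alternative chosen after seeing the data, gave 10.8-fold. That level is the 95th percentile of the background probes, above a typical one, which enlarges this factor. The normexp values carry an added offset of 50, which makes theirs smaller. The wildtype values hardly moved between these settings and the mutant values moved most in pool 1. The factor of 5.61 is thus on a scale that holds the background in it.

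**Figure D2:**
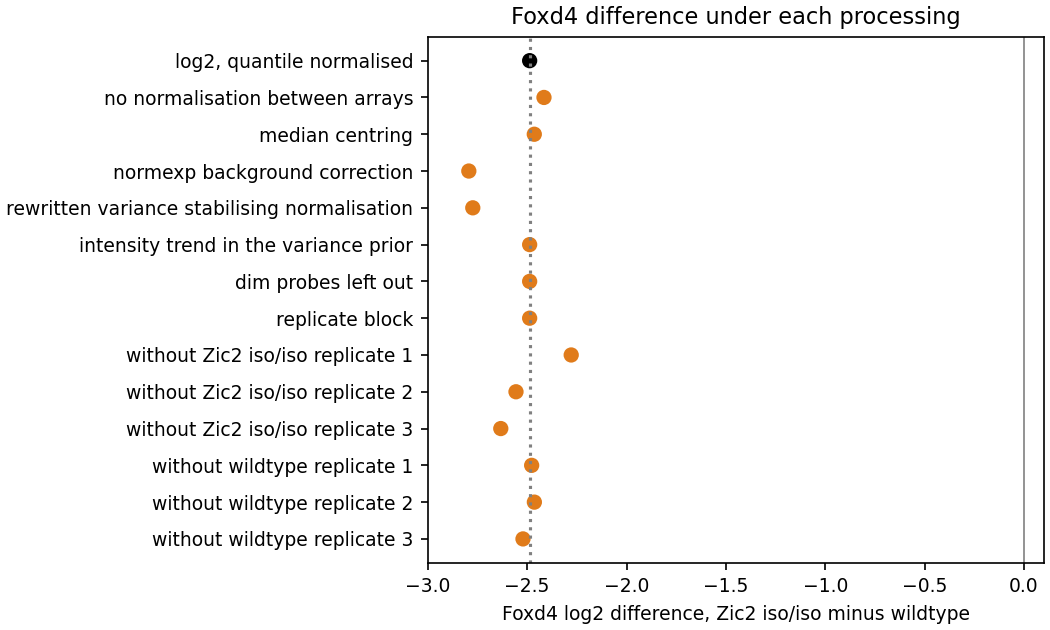
Difference in Foxd4 log2 intensity, Zic2 iso/iso minus wildtype (horizontal axis), under the normalisation used in the text (black point, dotted line at −2.49) and 13 alternatives (orange points). All points lie between −2.79 (normexp) and −2.28 (without Zic2 iso/iso replicate 1), left of the line at 0. The variance prior, the filter on dim probes and the replicate block cannot move the point from −2.49.

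After quantile normalisation, the mutant pools differed among themselves more than the wildtype pools did. Their log2 values spanned 0.68, against 0.11 in wildtype pools, and *Zic2* iso/iso pool 1 was the lowest. Without that pool the difference was −2.28. Without normalisation between arrays, log2 values were 8.24, 8.51 and 8.49 in mutant pools, against 10.80, 10.96 and 10.73 in wildtype pools. The spread was then similar in both genotypes, so the wider spread of the mutant pools rests on the normalisation. In deposited intensities pool 2 was slightly above pool 3, so the order of these 2 pools is not settled. Transcripts of other tissues also differed between the mutant pools. The embryonic globin gene *Hbb-bh1* read 12.87, 10.75 and 9.04 in *Zic2* iso/iso pools 1 to 3, against 11.55, 11.74 and 12.17 in wildtype pools. The mutant pool lowest in *Foxd4* was thus the highest in this marker of primitive blood. The mean of the 3 primitive blood genes above the background level showed the same spread, at 10.47, 8.93 and 7.87 in mutant pools, against 9.50, 9.67 and 9.88 in wildtype pools. The part of blood content in the *Foxd4* values was not tested.

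*Zic2* itself, the mutated gene, has 2 probes, and neither separated the groups. The brighter probe read 7.64, 7.57 and 8.01 in *Zic2* iso/iso pools, against 8.27, 8.06 and 8.00 in wildtype pools. These values overlapped, with a difference of −0.37 (standard error 0.11, adjusted p = 0.61 from limma). The dimmer probe read 7.56, 7.60 and 7.46 in mutant pools, against 7.28, 7.53 and 7.46 in wildtype pools, with a difference of 0.12. The probes thus differ in sign, both lie close to the background level, and a stop codon need not lower the level of a transcript. The array therefore does not serve as a check of the genotype labels.

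No fall was read for the nearest relatives of *Foxd4*. *Foxd2* averaged 7.44 ± 0.02 in *Zic2* iso/iso and 7.50 ± 0.12 in wildtype pools (SD, n = 3 each), at the background level, with a difference of −0.06 (standard error 0.07, adjusted p = 0.97 from limma) that turned to 0.0030 without normalisation between arrays. *Foxd1* averaged 7.25 in mutant and 7.38 in wildtype pools and *Foxd3*, a gene of neural crest and pluripotent cells, 7.20 and 7.25. Neither mean reached the background level in mutant or wildtype pools, so that no change could be read for these 2 genes. Of the 3 relatives measured, none passed the test, where 0.0945% of 19057 genes did at 1 probe per gene. None had an unadjusted p under 0.05, where 7.65% of genes did.

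The genes that the frog factor is known to raise were measured in full, and none passed the test, where 0.0945% of all genes did. With so few genes, none passing is near that share. *Sox11*, a transcription factor gene of neural progenitors, read 12.35, 12.61 and 12.76 in *Zic2* iso/iso pools, against 12.92, 12.58 and 12.49 in wildtype pools. The groups overlapped, with a difference of −0.09 (standard error 0.12), whose sign turned when mutant pool 1 or wildtype pool 1 was left out. *Gmnn*, which encodes the DNA replication inhibitor geminin, averaged 7.52 ± 0.09 in mutant and 7.44 ± 0.02 in wildtype pools (SD, n = 3 each), a difference of 0.07 (standard error 0.07) near the background level. *Zic2*, the other gene of this group, is described above. One of the 3 (*Zic2*) had an unadjusted p under 0.05, where 7.65% of genes did.

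The genes that the frog factor holds down did not pass the test either, again beside 0.0945% of all genes. Of 5 measured genes, 3 were above the background level. *Irx3*, a homeobox gene of the Iroquois family, read 12.56, 12.79 and 12.85 in *Zic2* iso/iso pools, against 12.67, 12.83 and 12.66 in wildtype pools, a difference of 0.01 (standard error 0.08). *Irx1* differed by −0.01 (standard error 0.08). For both, the sign turned between settings. *Irx2* was at 9.69 ± 0.12 in mutant and 9.95 ± 0.21 in wildtype pools (SD, n = 3 each). Although its 3 mutant values were all lower than its 3 wildtype values (as for 6.24% of genes), the difference of −0.26 did not pass (adjusted p = 0.76 from limma). *Irx2* was the 1 of the 5 with an unadjusted p under 0.05, where 7.65% of genes had one. *Zic1* (7.41 in mutant and 7.30 in wildtype pools) and the neuronal gene *Neurod1* (7.14 and 7.16) were below the background level. *Zic4* averaged 7.41 in mutant and 7.48 in wildtype pools, a difference of −0.07 (standard error 0.08), and *Zic5*, at 7.07 and 7.12, was also below that level.

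*Foxd4* is transcribed in the node, and some genes of the node and its midline derivatives fell with it. Of 17 measured genes of a node and midline list (16 above the background level), 7 fell and none rose, beside the 0.0945% of all genes that passed. The median difference of the 17 genes was −0.51, against −0.0038 over all 19056 genes other than *Foxd4*. The list was drawn up with earlier results of these pools known and holds genes that the study names as changed, so that its direction is not independent evidence. *Nodal*, the signal of left identity, had a log2 difference of −1.07 (limma, standard error 0.13, adjusted p = 0.0075). That of *Fam183b*, a cilia gene, was −0.85, and that of *Dynlrb2*, which encodes a dynein light chain, −0.69 (adjusted p = 5.1e-04 and 0.0019).

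The prechordal plate gene *Gsc* (a homeobox factor) fell by 0.78, and *Shh*, the Hedgehog ligand gene of notochord and node, by 0.86 (adjusted p = 0.0019 and 0.0075 from limma). *Sox9* fell by 0.69 and *Chrd*, which encodes the BMP antagonist Chordin, by 0.52 (adjusted p = 0.0075 and 0.011). The other 10 genes did not pass. In 4 of them every mutant value was nevertheless lower than every wildtype value, as for 6.24% of genes: the Nodal antagonist gene *Lefty1* differed by −0.64 (adjusted p = 0.27), the cartilage and notochord collagen gene *Col2a1* by −0.51 (0.14), and the genes of the secreted antagonists *Cer1* and *Nog* by −0.31 and −0.14 (0.58 and 0.85), with the mutant mean of *Nog* at 7.45, below the background level. Among the rest *Foxa2*, which marks node and notochord, averaged 7.87 ± 0.07 in mutant and 7.97 ± 0.06 in wildtype pools (SD, n = 3 each), a difference of −0.11 (standard error 0.07), and the motile cilia regulator *Foxj1* differed by −0.02. *Noto*, another homeobox gene of the node, averaged 7.48 in both genotypes, at the background level, and *T* was not analysed here. These 7 genes were named after their values were seen. Mean log2 intensity over the 16 genes above the background level was 8.42, 8.47 and 8.49 in mutant pools, against 8.89, 8.92 and 8.89 in wildtype pools. These groups did not overlap. Nor did the means of the neural plate list (at most 9.35 in mutant and at least 9.46 in wildtype pools) or the heart list (10.36 and 10.41). The means of the pluripotency list did not overlap either, in the other direction (at least 8.11 in mutant and at most 8.07 in wildtype pools). The calls for *Nodal*, *Chrd* and *Sox9* were each lost without at least 1 pool: *Nodal* without *Zic2* iso/iso replicate 2 (adjusted p = 0.070), *Sox9* without wildtype replicate 3 (0.056), and *Chrd* without *Zic2* iso/iso replicate 2 or 3 or wildtype replicate 2 or 3 (0.057 to 0.098). With the mean of all probes of a gene in place of the brightest, *Nodal* differed by −0.55 (adjusted p = 0.21) and *Shh* by −0.52 (0.068), and both calls were lost. Without normalisation between arrays none of the 7 genes that fell passed limma's test, *Gsc* and *Fam183b* (adjusted p = 0.15 each) and *Dynlrb2* (0.39) included. With median centring *Nodal* (0.11) and *Chrd* (0.30) did not pass.

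Of 18 measured neural plate genes (13 above the background level), 3 fell and none rose, beside the 0.0945% of all genes that passed, with a median difference of −0.06. This list too was drawn up with earlier results of these pools known. The 3 genes that fell are in the study's qPCR set for genes changed on these arrays, so their count is not independent evidence. *Fezf1*, a forebrain gene that encodes a zinc finger repressor, read 8.74, 9.14 and 9.27 in *Zic2* iso/iso pools, against 9.96 to 10.14 in wildtype pools. It fell by 0.98 (standard error 0.11, adjusted p = 0.0059 from limma), and its lowest and highest mutant pools were those of *Foxd4*. *Fzd5*, which encodes a receptor for Wnt ligands, fell by 0.79 and *En1*, a homeobox gene of the midbrain and hindbrain boundary, by 0.76 (adjusted p = 0.0048 and 0.020). Of the 15 others, the eye field gene *Rax* differed by −0.34 (adjusted p = 0.29), with no overlap between genotypes and mutant values below the background level, and the ventral neural gene *Nkx6-1* by −0.33 (0.74). *Sox2*, a gene of neural progenitors and pluripotent cells, read 8.86, 9.36 and 9.23 in mutant pools, against 9.17, 9.03 and 9.05 in wildtype pools, and the forebrain and midbrain gene *Otx2* differed by 0.06 (standard error 0.08). These 4 genes were also named after their values were seen. The call for *En1* was lost without *Zic2* iso/iso replicate 1 or 3 or wildtype replicate 2 or 3 (adjusted p = 0.050 to 0.12). With the mean of all its probes, *Fzd5* differed by −0.20 and did not pass (adjusted p = 0.64). Without normalisation between arrays *Fzd5* (adjusted p = 0.081 from limma) and *En1* (0.29) did not pass, while *Fezf1* did (0.0059).

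**Figure D3:**
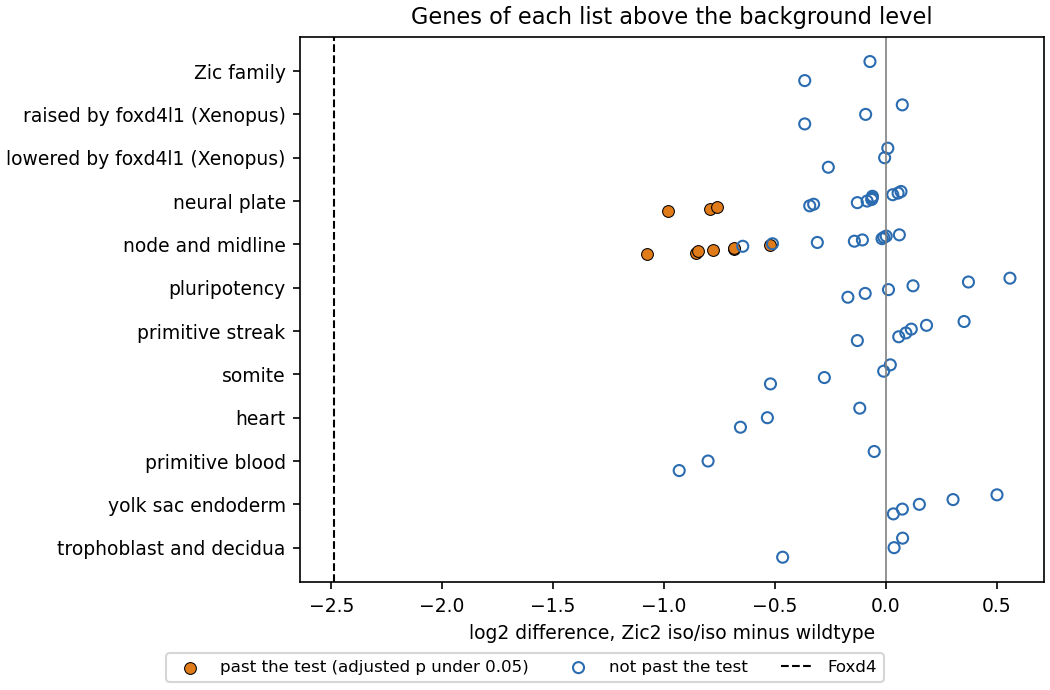
Log2 difference, Zic2 iso/iso minus wildtype (horizontal axis), of each gene above the background level on 12 lists (vertical axis). Filled points passed limma's test at an adjusted p of 0.05, open points did not, and the dashed line is Foxd4 at −2.49. Filled points occur in the neural plate list (3) and the node and midline list (7), and no point lies left of −1.07.

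Lists that follow tissue and stage gave no gene past the test with limma. Of 8 pluripotency genes, 3 had an unadjusted p under 0.05, as did 2 of 8 primitive streak genes, 2 of 5 somite genes, 2 of 4 heart genes, 1 of 5 yolk sac endoderm genes and none of 4 primitive blood and 4 trophoblast or decidua genes, beside 7.65% of all genes. The streak genes had a median difference of 0.08 and the pluripotency genes of 0.07, against −0.06 for somite and −0.33 for heart genes. In 4 of 8 pluripotency genes every mutant pool was above every wildtype pool, as for 4.67% of all genes, and in none was every mutant pool below. *Pou5f1* was among these 4, with a difference of 0.37 (adjusted p = 0.28 from limma). *Nanog*, a pluripotency gene, was higher in every mutant pool (8.53, 8.38 and 8.13, against 7.85, 7.83 and 7.68 in wildtype pools), a difference of 0.56 (adjusted p = 0.084 from limma). It passed in 5 of 14 alternatives, among them the removal of *Zic2* iso/iso replicate 3 (adjusted p = 0.020). The somite gene *Tcf15* differed by −0.52 (adjusted p = 0.27) and *Mesp1*, a gene of early mesoderm, by 0.35 (adjusted p = 0.16). The part of a difference in stage between the pools in the *Foxd4* values was not tested.

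The remaining lists are given by the member with the largest difference. *Actc1*, which encodes cardiac actin, read 11.75, 12.15 and 10.83 in mutant pools, against 12.36, 11.95 and 12.40 in wildtype pools (difference −0.66, adjusted p = 0.75 from limma). The yolk sac gene *Apob*, which encodes a lipoprotein component, read 11.32, 10.91 and 11.26 in mutant pools, against 10.64, 10.66 and 10.69 in wildtype pools (difference 0.50, adjusted p = 0.15). It passed without *Zic2* iso/iso replicate 2 (adjusted p = 0.015). *Hbb-bh1* differed by −0.93 (adjusted p = 0.93) and the decidual prolactin gene *Prl8a2* by −0.46 (adjusted p = 0.91), both with overlapping pools. These differences rest on single pools: with 1 pool left out, *Hbb-bh1* ran from −1.93 (without *Zic2* iso/iso replicate 1) to −0.0066 (without replicate 3), *Prl8a2* from −0.91 (without wildtype replicate 1) to −0.23 (without wildtype replicate 3), and *Actc1* was at −0.28 without *Zic2* iso/iso replicate 3.

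No fall of this size was found among the genes beside *Foxd4* on chromosome 19. The 10 genes with a probe on either side, in the order of the RefSeq annotation, had differences of −0.25 to 0.40 and a median of 0.0052, and 13 of the 20 were above the background level. None passed limma's test (0.0945% of all genes did), and 4 of the 20 had an unadjusted p under 0.05 (7.65% of all genes). *Cbwd1*, the next measured gene on one side, read 10.05, 9.78 and 9.81 in *Zic2* iso/iso pools, against 9.78, 9.92 and 10.17 in wildtype pools. Its groups overlapped, with a difference of −0.08 (standard error 0.10, adjusted p = 0.97) whose sign turned without normalisation or without wildtype replicate 3. *Pgm5*, the next on the other side, averaged 7.28 ± 0.14 in mutant and 7.47 ± 0.09 in wildtype pools (SD, n = 3 each), around the background level.

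The largest difference among the neighbours was a higher level, that of *Dmrt3*, which encodes a DM-domain transcription factor and is the 5th measured gene from *Foxd4* on the side of *Cbwd1*. It read 8.13, 8.06 and 8.12 in *Zic2* iso/iso pools, against 7.77, 7.64 and 7.69 in wildtype pools. Every mutant pool was above every wildtype pool, which held for 4.67% of genes, and the difference was 0.40 (standard error 0.07, adjusted p = 0.069 from limma). It passed in 1 of 14 alternatives, the mean of all probes of a gene (adjusted p = 0.049), where its own value was unchanged at 0.40 and fewer features were tested. *Dmrt1* and *Dmrt2*, its relatives in the same cluster, differed by −0.12 and −0.02 (adjusted p = 0.91 and 0.99). The means of *Dmrt1*, 7.35 in mutant and 7.46 in wildtype pools, are below the background level.

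**Figure D4:**
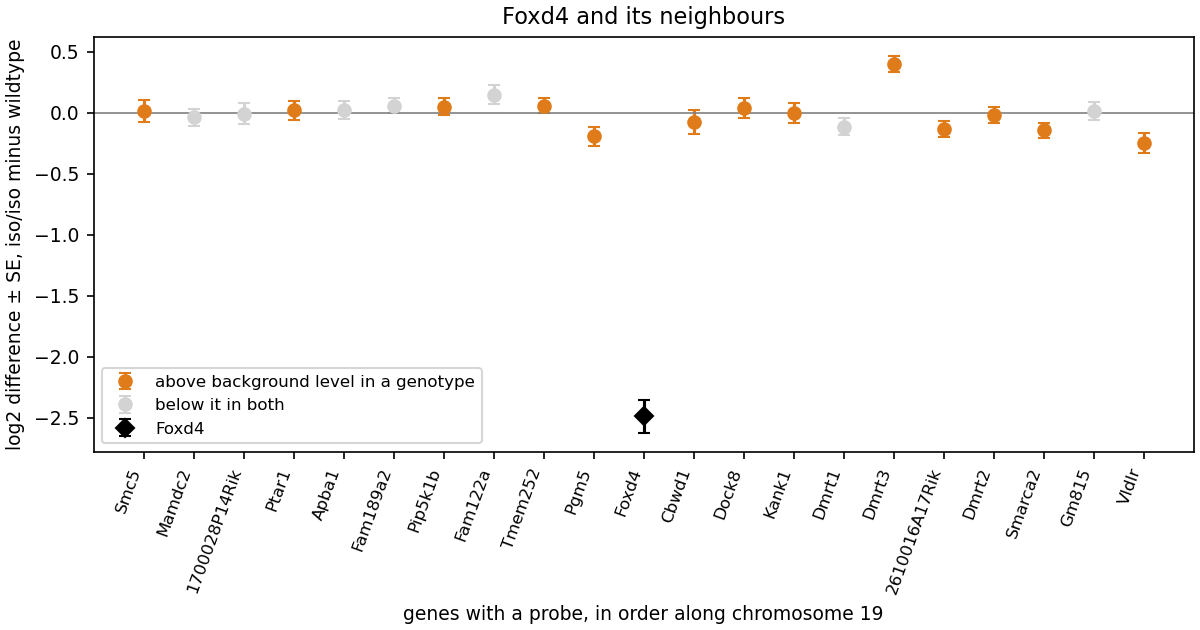
Log2 difference with its standard error, Zic2 iso/iso minus wildtype (vertical axis), of Foxd4 (diamond) and the 10 measured genes on either side of it in their order along chromosome 19 (horizontal axis). Grey points are below the background level in both genotypes. Foxd4 stands at −2.49, and the other genes lie between −0.25 (Vldlr) and 0.40 (Dmrt3).

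The genes whose pattern over the 6 pools was most like that of *Foxd4* were ranked by Pearson's r, among 947 genes above the background level whose values spanned at least 0.5 on the log2 scale. This r mostly reflects the split by genotype, which all points share, and is given as a description. It was above 0.9 for 39 genes and below −0.9 for 10. The 8 highest values were those of *Cldn10*, which encodes a tight junction protein (0.99), *Fzd5* (0.99), *Sox9* (0.99), the glutamate transporter gene *Slc1a3* (0.98), *Gsc* (0.98), *Foxc2*, a forkhead gene of the mesoderm (0.98), *Fezf1* (0.98) and *Dnajb13*, a gene of motile axonemes (0.98). They form no clear order, since these values lie within 0.98 to 0.99. By Spearman's rho, 1 of these 8 (*Fzd5*, rho = 0.94) stayed among the 8 highest.

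The differences of these genes were all smaller than that of *Foxd4*. *Cldn10* read 8.45, 8.53 and 8.49 in mutant pools, against 9.04, 8.99 and 9.04 in wildtype pools, and fell by 0.53 (adjusted p = 0.0069 from limma). *Slc1a3* differed by −0.40, *Foxc2* by −0.36 and *Dnajb13* by −0.37, and these 3 did not pass (adjusted p = 0.088, 0.14 and 0.14). The 4 lowest values of r were those of *Dnajc3*, an endoplasmic reticulum co-chaperone gene (−0.98), *Nanog* (−0.95), *Hic2*, which encodes a zinc finger repressor (−0.94), and the pepsinogen gene *Pga5* (−0.93). *Dnajc3* rose by 0.72 (adjusted p = 0.0048). With the mean of all probes of a gene, *Cldn10* differed by −0.18 (adjusted p = 0.64) and *Dnajc3* by 0.35 (0.11), and neither passed. *Hic2* and *Pga5* differed by 0.42 and 0.37 and did not pass (adjusted p = 0.13 and 0.25). *Cldn10* and *Dnajc3* lie on chromosome 14, as *Zic2* does, and for them an effect of the mutation and of other variants carried with it cannot be told apart. Whether such variants also act on *Foxd4*, which lies on chromosome 19, was not tested.

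**Figure D5:**
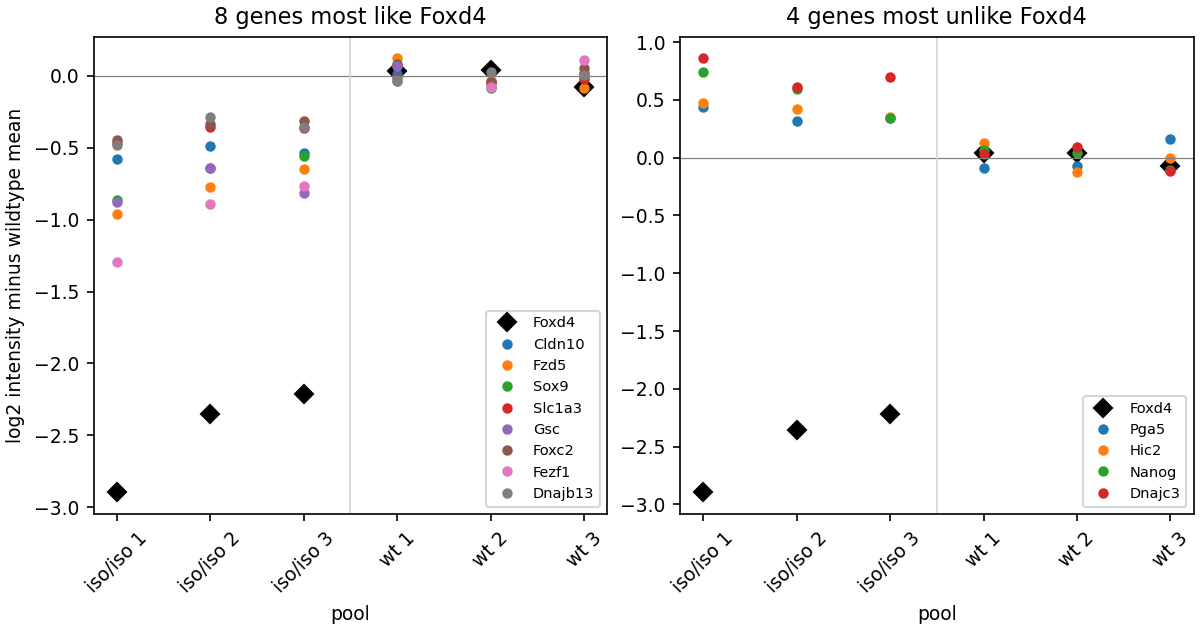
Log2 intensity minus the wildtype mean of the same gene (vertical axis) in each pool (horizontal axis), for Foxd4 (diamonds) with the 8 genes of highest r (left) and the 4 of lowest r (right). In the left panel all genes are below 0 in the Zic2 iso/iso pools, with Foxd4 lowest, and in the right panel the 4 other genes are above 0 there.

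Among the 17 other genes that passed the test, 10 had their lowest mutant value in *Zic2* iso/iso pool 1, the pool lowest in *Foxd4*, and 5 had their highest in pool 3. Both counts include *Rps6kl1*, which rose in the mutants (difference 0.69), so that its change was smallest in pool 1. The share of all genes with this order of pools was not counted. Those lowest in pool 1 included *Sox9*, *Fzd5*, *Fezf1* and *Nodal*, while *Gdf10* and *Nptx2* were lowest in pool 3. The 17 include *Lefty2*, whose mutant values (7.21, 7.26 and 7.09) were all below the background level, and *Dynlrb2*, whose value in pool 3 (7.44) was, so that their order among mutant pools is not settled. Of 13 of these genes with a promoter window, 2 (*Gdf10* and *Nodal*) hold the letters CAGCAGG in any of their windows. The 10.5% given above is a share of single windows, not of genes, so it is not a like measure.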

How the data were processed

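RNA of 6 pools was measured on 1 Illumina Mouse WG6 v2 array each. Per the deposited table, values are probe intensities on a linear scale, with neither background subtraction nor normalisation between arrays. The variance stabilising normalisation named in the methods is not in them, and the scanner software is not given in the sources used here. After a floor of 1 and log2 conversion, arrays were quantile normalised, and all 45281 probes were fitted with limma 3.58.1 (lmFit, eBayes) in R 4.3.3, without covariates. P-values were adjusted by Benjamini-Hochberg over all probes, with a threshold of 0.05. Limma and the threshold follow the study's methods, and their normalisation was rewritten as an alternative, because its package was not at hand. The labels name the pools as replicates. P-values set the difference between genotypes against the spread of these pools within a genotype, with each probe's variance drawn towards that of all probes.

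Genes were named through the platform annotation, updated through RefSeq (GRCm38.p6): 34885 probes carry 1 symbol, 18 several and 10378 none. The brightest probe over the 6 pools stands for a gene. The background level is the 95th percentile of the mean of 1608 probes for receptor, keratin-associated and defensin genes. The member and the lists were chosen with earlier results of these data known. Named genes are *Foxd4*, the measured genes of the Foxd, Zic and *Xenopus* lists, the genes past the threshold and the largest difference of each other list and of the neighbours, and the 8 genes most like and 4 most unlike *Foxd4*. Any other gene was named with its values known. The steps were tested on simulated data. Alternatives were the normalisation, the background correction, the variance prior, a filter on dim probes, the mean of a gene's probes, the replicate block, a threshold of 0.10, Spearman's rho and leaving out each pool. Some genes of the lists, *T*, *Tnnt2* and *Prl3d1* among them, are not reported here.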

Additional observations from a re-analysis of the deposited data

How the results depend on the processing

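The *Foxd4* difference kept its direction in 13 alternatives. In those that change the variance prior, leave out dim probes or add the replicate block it was −2.49. These steps cannot alter the difference itself, so they are no check of it. It was −2.79 with normexp background correction and −2.77 with the rewritten variance stabilising normalisation, and −2.63 to −2.28 when 1 pool was left out. The count of 20 probes past the threshold was 4 without normalisation between arrays, 11 with median centring, 31 with a variance prior that follows intensity and 34 at a threshold of 0.10, and ran from 14 to 29 with 1 pool left out. Of genes on the lists, 10 passed, but 1 without normalisation and 6 with the mean of all probes of a gene (7 to 11 with 1 pool left out). Among chromosome neighbours 1 passed with the mean of all probes and none in the other alternatives. By Spearman's rho 1 of the 8 genes most like *Foxd4* stayed among the 8 highest. Where no cause is named, the cause was not tested.

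Of 34 genes named by rule beside *Foxd4* and *Zic2*, 29 kept their direction in every alternative. None of the 5 that did not passed the test. *Foxd2* was at 0.0030 and *Cbwd1* at 0.011 without normalisation, and *Cbwd1* at 0.032 without wildtype replicate 3. *Irx1* was at 0.064 without normalisation, 0.015 with median centring, 0.010 with variance stabilisation, and 0.022 and 0.075 without replicate 1 of *Zic2* iso/iso and wildtype. *Sox11* was at 0.022 and 0.036 without these. *Irx3* was at −0.014 with variance stabilisation and at −0.048 to −0.017 (with −0.020 and −0.019) without *Zic2* iso/iso replicates 3 and 2 and wildtype replicates 3 and 1. With 1 pool left out, *Sox11* ran from −0.19 to 0.036, *Irx1* from −0.050 to 0.075, *Irx3* from −0.048 to 0.097 and *Cbwd1* from −0.17 to 0.032. Of the 12 that passed, *Fezf1* passed in all 14 alternatives.

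No pairing of the pools by replicate number was seen, as deviations of same-numbered pools correlated at −0.12, −0.021 and −0.12. With 3 pools per genotype this cannot show that no litters were shared between pools. With the replicate block 17 probes passed and 9 genes of the lists, while the *Foxd4* difference stayed at −2.49, which such a block cannot change. The absence of background subtraction limits what can be read for dim genes.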
